A study of Mus musculus with 12 samples.

Results

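T cells and natural killer (NK) cells of the mouse liver were followed through 10 marker genes: Cd3d, Cd3e, Cd3g, Cd2, Cd4, Cd8a, Cd8b1, Nkg7, Gzma and Lck. The genes were taken by symbol, and each of the 10 had at least 1 line in each of the 2 deposited tables, among 45789 genes with a line in both tables. Strand-specific RNA-Seq covered 12 livers in 4 groups of 3. In the diet model, wild-type mice received a high-fat diet (HFD, 54 kJ% fat) or a control diet (CD, 11 kJ% fat). In the genetic model, db mice, labelled Leprdb, were set against misty mice, and all of these mice were on the 11 kJ% fat diet. The labels give strain C57BL/6 and an age of 36 weeks for every liver. The study's methods describe male mice, the C57BL/6N substrain for the diet model, and for db and misty mice a BKS background, a younger age and more animals per genotype than the labels. Misty mice served in those methods as the lean controls of db mice, whose Leprdb allele disrupts the signalling form of the leptin receptor, although the series text lists misty among the models of obesity. Where the sources differ, the groups follow the labels.

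T cells recognise antigen through a T cell receptor whose signal enters the cell through the CD3 chains, encoded by Cd3d, Cd3e and Cd3g. The kinase LCK, bound to the co-receptors CD4 or CD8, starts that signal. CD4 marks helper and regulatory T cells, CD8 (encoded by Cd8a and Cd8b1) marks cytotoxic T cells, and CD2 is an adhesion receptor of T and NK cells. NK cells carry no CD3 complex at their surface and share with cytotoxic T cells the granule proteins NKG7 and granzyme A, the product of Gzma. The liver holds resident and circulating T and NK cells among a large excess of hepatocytes, and these cells are studied in fatty liver disease as part of hepatic inflammation.

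The markers lie in several clusters of the genome (GRCm38). Cd3g (chr9:44969572-44980431, minus strand), Cd3d (chr9:44981793-44987052, plus strand) and Cd3e (chr9:44998743-45009590, minus strand) span 40019 bases. Cd3g and Cd3d run away from each other with 1361 bases between them, and 11690 bases separate Cd3d from Cd3e. Cd8b1 (chr6:71322788-71337494) and Cd8a (chr6:71373427-71379173) lie on the plus strand, 35932 bases apart, and Cd4 (chr6:124864692-124888221, minus strand) is on the same chromosome. Cd2 (chr3:101275899-101287939, minus), Nkg7 (chr7:43437073-43438249, plus), Gzma (chr13:113093825-113100979, minus) and Lck (chr4:129548344-129573641, minus) stand alone.

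Promoter sequences from RefSeq (build GRCm38.p6, 250 bases before to 50 after the start of a gene) were matched for 7 of the 10 members, with 8 promoters because Lck has a pair of them. The 4 shown belong to the members with a RefSeq promoter that were higher in HFD livers by the rule given below: Cd3e (chr9:45009562-45009861, minus strand), Cd8a (chr6:71373177-71373476, plus), Nkg7 (chr7:43436888-43437187, plus) and Gzma (chr13:113100932-113101231, minus). Capitals mark matches, on either strand, to 4 short motifs of factor families that act in lymphocytes: TGTGGT (RUNX), CAGGAAG (ETS), AGGTGTGA (T-box) and CAGCTG (E-box).
Cd3e: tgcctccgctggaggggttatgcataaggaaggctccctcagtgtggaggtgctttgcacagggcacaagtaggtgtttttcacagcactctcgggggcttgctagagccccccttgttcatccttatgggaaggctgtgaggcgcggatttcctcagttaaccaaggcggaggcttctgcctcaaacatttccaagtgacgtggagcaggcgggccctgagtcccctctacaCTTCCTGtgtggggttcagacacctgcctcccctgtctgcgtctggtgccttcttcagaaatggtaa
Cd8a: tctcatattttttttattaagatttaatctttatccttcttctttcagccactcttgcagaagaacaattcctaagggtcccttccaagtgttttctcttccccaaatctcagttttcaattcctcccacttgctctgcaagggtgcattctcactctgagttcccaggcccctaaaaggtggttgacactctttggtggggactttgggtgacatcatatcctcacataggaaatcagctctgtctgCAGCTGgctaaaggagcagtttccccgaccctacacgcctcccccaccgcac
Nkg7: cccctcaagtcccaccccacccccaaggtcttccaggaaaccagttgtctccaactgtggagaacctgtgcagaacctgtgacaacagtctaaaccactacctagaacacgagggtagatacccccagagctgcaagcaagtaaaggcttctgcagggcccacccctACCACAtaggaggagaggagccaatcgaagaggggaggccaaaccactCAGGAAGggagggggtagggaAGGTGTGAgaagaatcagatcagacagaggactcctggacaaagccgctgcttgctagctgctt
Gzma: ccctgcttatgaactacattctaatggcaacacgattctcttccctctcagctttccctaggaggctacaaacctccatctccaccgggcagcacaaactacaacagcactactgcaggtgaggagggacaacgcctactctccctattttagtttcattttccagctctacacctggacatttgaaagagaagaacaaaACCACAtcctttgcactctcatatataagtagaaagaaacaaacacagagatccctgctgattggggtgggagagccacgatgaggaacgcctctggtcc
The ETS letters occur at -17 in Cd3e (reverse strand, cttcctg) and at -35 in Nkg7, counting from the start site as +1 to the first printed base of the match. Nkg7 also has the RUNX letters at -83 and the T-box letters at -14, on opposite strands, and Gzma has the RUNX letters at -50. In Cd8a the capitals are the E-box letters at -2. Over the 8 member promoters, RUNX letters occurred in 3, ETS letters in 4, T-box letters in 1 and E-box letters in 2. Of 32851 mouse promoters of the same length, 16.8% held the RUNX letters, 13.3% the ETS letters, 1.28% the T-box letters and 16.3% the E-box letters. These matches are a description of the sequence and no measure of factor binding.

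Each deposited table gives 1 pooled FPKM value (fragments per kilobase of transcript, further divided by the size of the library, a level scaled to length and depth) per group for each assembled transcript. With 1 value per group, no spread between livers could be computed and no test was run on the values below. The depth of each library is unknown. The p-values of the authors' own comparison stand in the tables and were not used. The level of a gene is the sum of FPKM over its listed lines, and the difference is that of log2(FPKM + 0.1), obese minus control, which understates the change of genes near 0.1 FPKM. A gene was called higher or lower when its difference reached 2-fold (1 on the log2 scale) and the mean of its 2 group values reached 0.1 FPKM. The 2 tables were normalised separately and levels were compared only within a table. In bulk liver RNA, fewer cells of a type and less RNA per cell cannot be told apart, and the same holds for more of either.

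HFD livers held higher levels of most of the T and NK markers than CD livers. Of the 10 members, 6 were called higher (60%), 0 were called lower, and the summed level of all 10 was 1.95 FPKM in CD and 5.77 FPKM in HFD, a ratio of 2.95. Among all 13234 genes that passed the same minimum, 7.37% were called higher and 3.42% lower. Among the 3478 genes with a mean level between 0.284 and 0.877 FPKM, the range of the members that passed, 9.32% were called higher. The median difference over all 10 members was 1.22, with a range from 0.00 (Lck) to 1.73 (Gzma), against a median of 0.00 over all genes that passed. Genes in the members' level range had a median of 0.02 with quartiles at -0.23 and 0.40. A total of 7 members passed the minimum and 3 (Cd3d, Cd3g and Lck) did not.

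**Figure D1:**
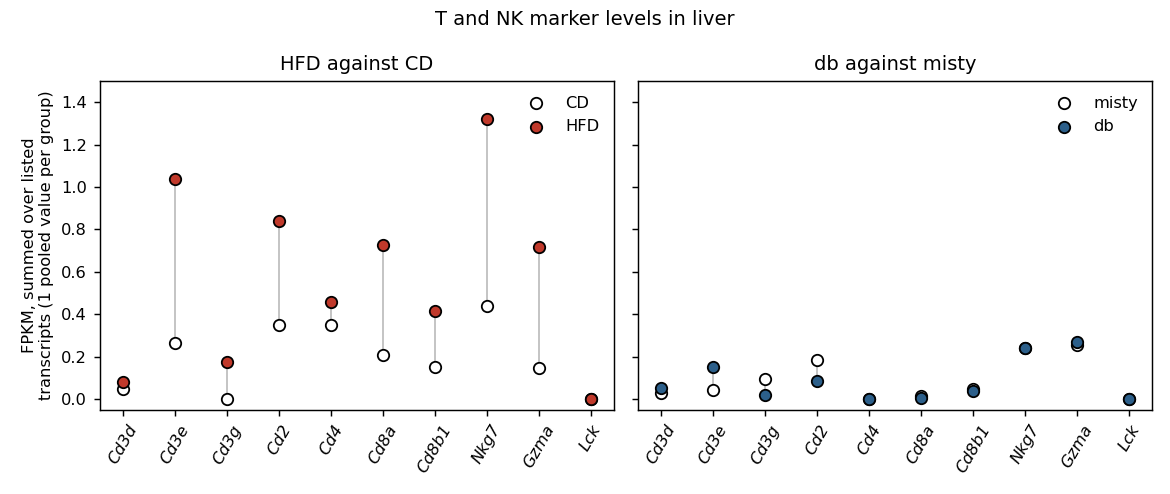
Level of each of the 10 markers in FPKM (vertical axis, linear), summed over its listed transcripts, as 1 pooled value per group with no error bar; open circles are the control group (CD, left panel, or misty, right panel) and filled circles the obese group (HFD or db). In the left panel the filled circle is above the open one for every marker but Lck, while in the right panel no marker exceeds 0.269 FPKM.

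The CD3 chains, which every conventional T cell needs for its receptor, were listed at unequal levels. Cd3e was at 0.265 in CD and 1.04 FPKM in HFD, a difference of 1.64 or 3.92-fold on the FPKM scale. Cd3g was near 0 in CD (5.31e-06 FPKM) and at 0.176 FPKM in HFD, a difference of 1.46, with a mean under the 0.1 FPKM minimum. Cd3d was at 0.0459 in CD and 0.0826 FPKM in HFD, a difference of 0.32, and it too was under the minimum. So 1 of the 3 CD3 chains was called, and each of the 3 had its higher value in HFD.

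The co-receptors divided by the call. Cd8a, the alpha chain of CD8, was at 0.208 in CD and 0.726 FPKM in HFD, a difference of 1.42 or 3.49-fold. Cd8b1, the beta chain that pairs with it on most cytotoxic T cells, was at 0.151 in CD and 0.417 FPKM in HFD, a difference of 1.04 or 2.76-fold. Cd4, in contrast, was at 0.348 in CD and 0.457 FPKM in HFD, a difference of 0.31 or 1.31-fold that was not called. The Cd4 level came from a single line, while its other line was near 0 (2.12e-42 in CD and 1.57e-25 FPKM in HFD). Cd4 is a minus-strand gene, and its line with a level is in the lower-numbered run of assembly loci. In the genetic model the single lines of plus-strand Cd8a and Cd8b1 fell in that run. The Cd4 line near 0 is in the higher-numbered run, as is the single Cd4 line of the genetic model. The level given for Cd4 may thus be antisense RNA, which was not tested. In CD livers Cd4 was listed above Cd8a, and in HFD livers below it, on summed lines whose strand is not known. This order is thus not one of the sense RNA of the genes. Whether Cd4 and Cd8a differ in their response was not tested, since no spread can be had for either.

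The signalling and adhesion members also divided. Cd2 was at 0.352 in CD and 0.84 FPKM in HFD, a difference of 1.05 or 2.38-fold, close to the limit of the call. Lck was listed at 2.44e-05 in CD and 4.12e-06 FPKM in HFD, a difference of 0.00. LCK is a kinase that T cells in general express, and the tables carry 1 line for Lck against 8 annotated transcripts, so the level of the gene as a whole is not known from them.

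Both cytotoxic granule genes were called higher. Nkg7, a granule membrane protein needed for killing by NK and CD8 T cells, was the member with the highest level in CD (0.438 FPKM) and in HFD (1.32 FPKM), a difference of 1.39 or 3-fold. Gzma, which encodes a protease released into target cells, was at 0.147 in CD and 0.718 FPKM in HFD, a difference of 1.73 or 4.89-fold, the largest among the 10 members. In the order of the summed levels, whose strand is not known, Nkg7, Cd2 and Cd4 led in CD, and Nkg7, Cd3e and Cd2 led in HFD. Which neighbours in these orders differ beyond their spread cannot be said from 1 value per group.

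The same direction was present in the single transcripts. The 20 lines of the members in the diet table comprised 18 with at least 0.01 FPKM in either group, and all 18 were higher in HFD. A total of 9 members had every such line higher in HFD, and 7 members had more than 1 line. The 3 lines of Cd3e went from 0.0981 to 0.556, from 0.022 to 0.12 and from 0.145 to 0.364 FPKM. For Cd8a they went from 0.0416 to 0.0889, from 0.0682 to 0.213 and from 0.098 to 0.424 FPKM, the second of them annotated as a retained intron, an RNA that is not spliced to code for the protein. In Cd2 the coding line went from 0.144 to 0.524 FPKM, and the pair of retained-intron lines went from 0.0835 to 0.113 and from 0.125 to 0.203 FPKM. Cd2 was thus highest in its coding line in HFD. Nkg7 had lines at 0.319 and 0.963 FPKM and at 0.12 and 0.353 FPKM, and Cd8b1 had lines at 0.0996 and 0.211 FPKM and at 0.0511 and 0.205 FPKM, CD first. The lines of 1 gene are not independent replicates. They are the parts of the sums above, so their direction is no separate support. The share of all lines in the diet table with a higher value in HFD was not computed. The tables do not give the strand on which a line was assembled. For each of the 7 members with more than 1 line, the lines fall in separate runs of the assembly's locus numbers. These runs may be the strands of the chromosome, which was not tested. In the genetic model, the single lines of plus-strand Cd3d, Cd8a and Cd8b1 fell in the lower-numbered run of their chromosome. Those of minus-strand Cd3e, Cd3g and Cd4 fell in the higher-numbered run. On that reading, the own-strand line of Cd3e would go from 0.145 to 0.364 FPKM and that of Cd8b1 from 0.0996 to 0.211 FPKM. The own-strand line of Cd8a would be 0.0416 and 0.0889 FPKM, under the minimum. For Cd2 it would be the coding line, and for Nkg7 the line of 0.319 and 0.963 FPKM. The largest HFD lines of Cd3e and Cd8a would then be antisense. The summed levels of these members may thus include antisense RNA, and the calls were not repeated on own-strand lines.

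**Figure D2:**
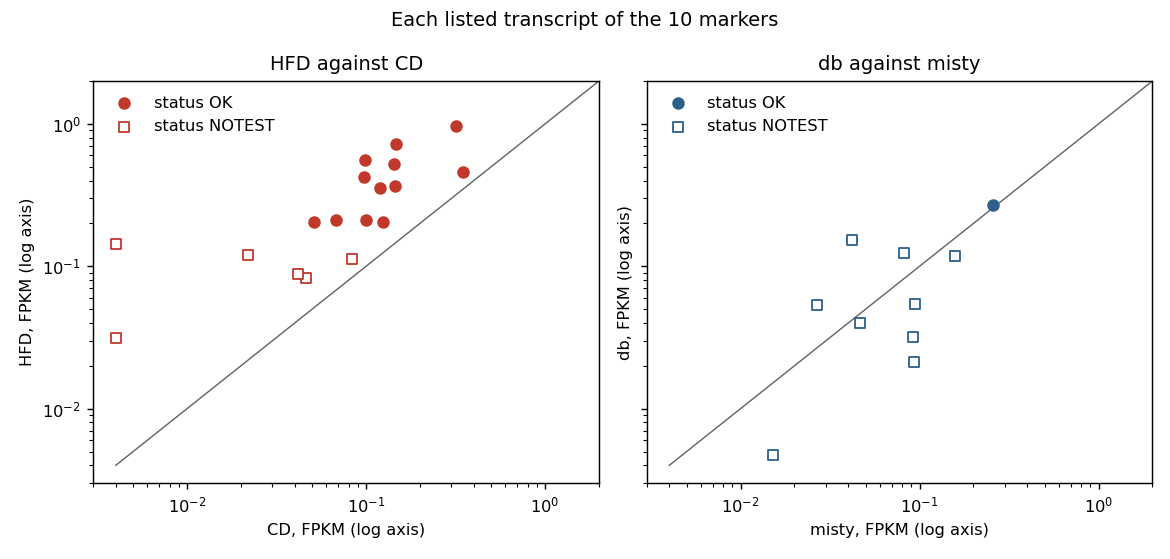
Each listed transcript line of the 10 markers, with control FPKM on the horizontal and obese FPKM on the vertical axis (both log axes), the diagonal marking equal values; filled circles are lines that Cuffdiff gave status OK and open squares lines given NOTEST, too few reads for its test, lines under 0.01 FPKM in both groups are left out, and the 2 Cd3g lines near 0 in CD are drawn at the left edge. All 18 lines lie above the diagonal for HFD, and 4 lie above and 6 below it for db.

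Of the 20 lines in the diet table, 12 had status OK and 8 had NOTEST, a flag of the authors' Cuffdiff run for too few reads. The calls depend on the pseudocount, because all 10 members are near or under 1 FPKM: with 1 FPKM added in place of 0.1, 0 of the 10 members were called and the median fell to 0.37. With a minimum mean of 0.5 FPKM, 3 members passed and all 3 (Cd3e, Cd2 and Nkg7) were called higher.

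In the genetic model the same markers showed no common direction. Of the 10 members, 0 were called higher and 0 lower in db against misty livers, the median difference over all 10 was 0.00, and the summed level was 0.904 FPKM in misty and 0.87 FPKM in db. Across all 12762 genes that passed, 7.37% were called higher and 5.24% lower. Among the 1493 genes with mean levels between 0.136 and 0.262 FPKM, the range of the members that passed here, 9.65% were called higher and 8.84% lower, with a median of -0.08 and quartiles at -0.44 and 0.37. Only 3 members passed the minimum (Cd2, Nkg7 and Gzma), so the other 7 could not be called. The median of 0.00 falls on Cd4 and Lck, both listed near 0 in each group, and is thus no measure of an absence of change.

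Gzma and Nkg7 were the members with the highest levels in both groups of this table and were close to equal between them. Gzma was at 0.256 FPKM in misty and 0.269 FPKM in db, a difference of 0.05, and its line was the only line of status OK among the 12 lines of the members. Nkg7 was at 0.239 FPKM in misty and 0.242 FPKM in db, a difference of 0.02, from lines that moved in opposite directions (0.157 to 0.119 and 0.0821 to 0.124 FPKM). Cd2 was at 0.186 FPKM in misty and 0.0863 FPKM in db, a difference of -0.62, and both of its lines were lower in db. On the FPKM scale this was 2.15-fold lower in db, short of the call once 0.1 FPKM was added to each value.

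The CD3 chains did not share a direction in db livers. Cd3e was at 0.0418 FPKM in misty and 0.153 FPKM in db, a difference of 0.84, and its mean of 0.0975 FPKM was just under the minimum. Cd3g was at 0.0932 FPKM in misty and 0.0211 FPKM in db, a difference of -0.67. Cd3d was at 0.0269 FPKM in misty and 0.0538 FPKM in db, a difference of 0.28. Each of these 3 values rests on 1 line of status NOTEST, so Cd3e and Cd3g, chains of 1 receptor complex, differ in sign at levels that Cuffdiff did not test.

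The co-receptors and Lck were near 0 in both groups of the genetic model. Cd8a was at 0.0151 FPKM in misty and 0.00474 FPKM in db, and Cd8b1 was at 0.0465 FPKM in misty and 0.0401 FPKM in db. Cd4 was listed at 4.23e-50 FPKM in misty and 0.000211 FPKM in db. Lck was listed at 5.67e-06 FPKM in misty and 3.18e-06 FPKM in db. No direction can be read for these 4 genes at such levels. Of the 10 member lines with at least 0.01 FPKM in either group, 4 were higher and 6 lower in db.

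**Figure D3:**
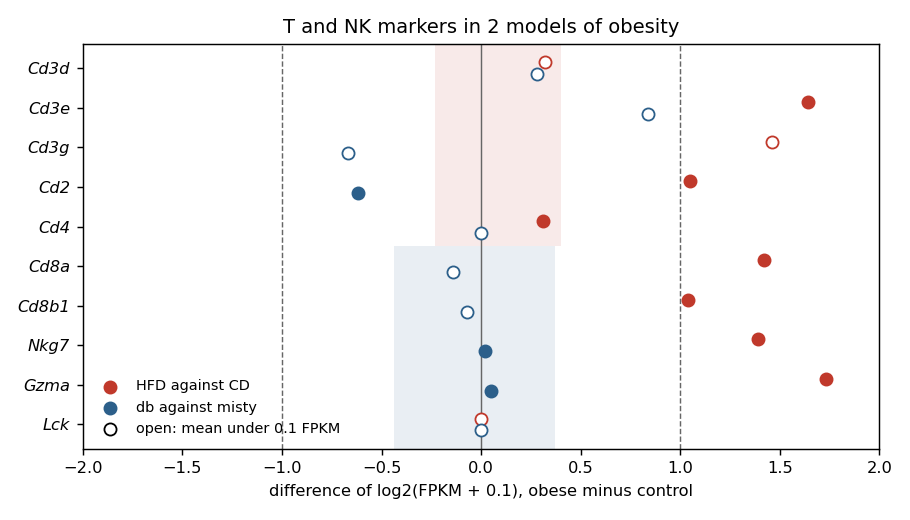
Difference of log2(FPKM + 0.1), obese minus control, on the horizontal axis for each marker in HFD against CD (red) and db against misty (blue), filled where the mean reached 0.1 FPKM and open where it did not; dashed lines mark 2-fold. The shaded bands, red in the upper part for HFD and blue in the lower part for db, span the quartiles of all genes in the members' level range (-0.23 to 0.40 and -0.44 to 0.37). The 6 filled red points right of the dashed line are Cd3e, Cd2, Cd8a, Cd8b1, Nkg7 and Gzma, and no filled blue point reaches it.

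Set side by side, the 3 members that passed in both tables had differences of 1.05 (HFD) and -0.62 (db) for Cd2, 1.39 and 0.02 for Nkg7, and 1.73 and 0.05 for Gzma. Whether the models differ was not tested, since neither table holds a spread between livers. Strain background and age, for which the methods give other values in db and misty mice, cannot be told apart from the model. The same holds for sequencing centre, library kit, instrument and read length, which the methods give separately for the HFD and CD cohort. The tables also list different transcripts: 13 of 29 annotated transcripts of the members appear in the diet table and 10 of 29 in the genetic one. Levels are thus those of the listed lines and not of whole genes. The hepatocyte gene Ttr, for example, was listed at 3.05e+03 FPKM in CD and at 0.664 FPKM in misty, and Alb, the albumin gene, was listed at 0 in all 4 groups.

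Other genes of T cells, from a list of 34 without the members, gave 4 calls in HFD livers. For the diet model, 32 had a line, 20 passed, all 4 called genes were higher and 0 lower, and the median over those with a line was 0.66. Over all genes that passed, 7.37% were called higher. Pdcd1, the inhibitory receptor PD-1, was at 0.0207 in CD and 0.333 FPKM in HFD (1.84) and passed the minimum only through its HFD value. Fyb, an adaptor of T cell receptor signalling also found in myeloid cells, was at 1.34 and 3.77 FPKM (1.43). Thy1, a surface protein of T cells and some stromal cells, was at 0.374 and 0.849 FPKM and just reached the limit (1.00). The constant regions of the T cell receptor itself stood just short of it, with Trac at 0.114 and 0.319 FPKM (0.97), Trbc1 at 0.101 and 0.286 FPKM (0.94) and Trbc2 at 0.528 and 1.12 FPKM (0.96). Trbc1 and Trbc2 are near-identical in sequence, so their split is uncertain. Some genes of the list had their lower value in HFD: Zap70, the kinase that acts after LCK, was at 0.37 in CD and 0.184 FPKM in HFD (-0.73), and Foxp3, the regulator of regulatory T cells, at 0.538 and 0.285 FPKM (-0.73), neither called.

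NK and cytotoxic genes outside the members gave 7 called higher and 0 lower in HFD, out of 28 listed, 27 with a line and 13 that passed, with a median of 0.39. The share called higher over all genes that passed was 7.37%. Ccl5, a chemokine released by activated T and NK cells, was at 1.38 in CD and 6.14 FPKM in HFD (2.07). Xcl1, a chemokine of NK and CD8 T cells that attracts dendritic cells, was at 0.165 and 0.848 FPKM (1.84). Ncr1, the NK receptor NKp46, was at 0.0991 and 0.453 FPKM (1.48), and Gzmb, granzyme B, at 0.304 and 0.94 FPKM (1.36). The receptors Cd244 (0.0467 and 0.216 FPKM, 1.11) and Klrc1 (0.137 and 0.382 FPKM, 1.02) and the adaptor Tyrobp (14.1 and 30.4 FPKM, 1.10) completed the 7. Ncr1 and Cd244 were under 0.1 FPKM in CD and passed the minimum only through HFD. Tyrobp is also an adaptor of macrophages and gave most of the summed level of the list, 18.6 FPKM in CD and 42.6 FPKM in HFD. Some effector genes did not reach the limit: Prf1, which encodes the pore-forming perforin, was at 0.189 and 0.227 FPKM (0.18), and granzyme gene Gzmm was at 1.17 and 1.06 FPKM (-0.13). Klrb1c, the gene of NK1.1, was listed near 0 in CD (2.26e-15 FPKM) and at 0.0233 FPKM in HFD. Granzymes and Klr receptors belong to multigene families, and reads shared within a family make single values less certain.

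Of 16 genes for lymphocyte homing, 15 had a line in the diet table, 10 passed and 3 were called higher, with a median of 0.15. Among all genes that passed, 7.37% were called higher. They were the chemokine receptor Ccr2 (0.485 and 1.6 FPKM, 1.54), the integrin chain Itgb2 (3.07 and 8.57 FPKM, 1.45) and the adhesion receptor Cd44 (4.23 and 9.5 FPKM, 1.15). All 3 are also expressed by myeloid cells. The chemokine receptor Cxcr3, more restricted to T and NK cells, was at 0.391 and 0.513 FPKM (0.32) and was not called.

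In db livers the T cell list gave 4 called higher and 0 lower among 31 with a line and 13 that passed, with a median of 0.00. Over all genes that passed in this model, 7.37% were called higher and 5.24% lower. Among them were Themis (0.0155 FPKM in misty and 0.238 FPKM in db, 1.55), a T cell signalling gene that passed the minimum only through db, the inhibitory receptor Lag3 (0.205 and 0.718 FPKM, 1.42) and the costimulatory receptor Icos (0.181 and 0.567 FPKM, 1.25). The NK list gave 0 called in either direction among 27 with a line and 8 that passed, and Ccl5 was at 0.297 FPKM in misty and 0.145 FPKM in db (-0.70). Of the 16 homing genes 10 passed and 1, Ccr2, was called higher (0.207 and 0.626 FPKM, 1.24).

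**Figure D4:**
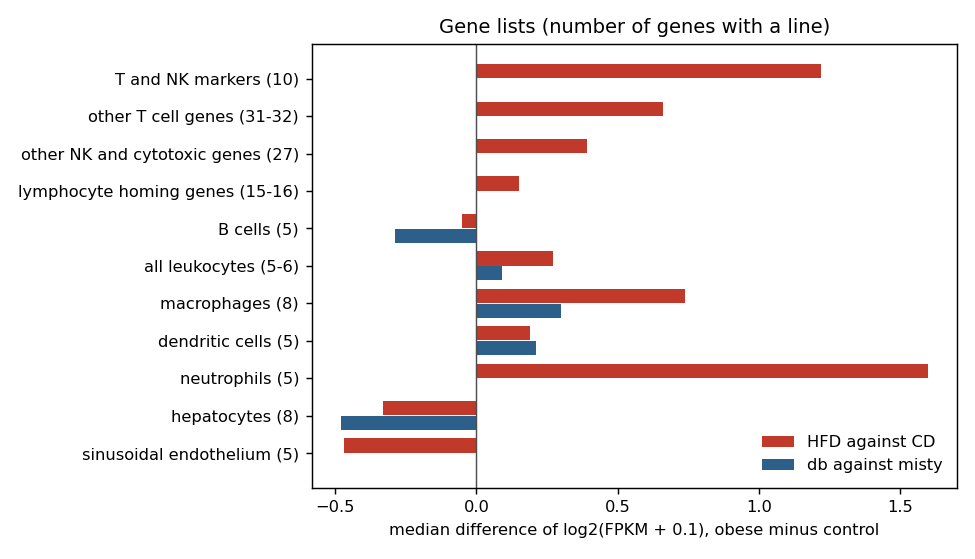
Median difference of log2(FPKM + 0.1), obese minus control, for the 10 markers and 10 other gene lists in HFD against CD (red bars) and db against misty (blue bars), over the genes with a line, whose number stands in parentheses; a missing bar is a median of 0.00. The markers have a median of 1.22 in HFD and 0.00 in db, the neutrophil list has 1.60 and 0.00, and the B cell list has -0.05 and -0.29.

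Some markers of several other cell types were also higher in HFD livers. Over all genes that passed, 7.37% were called higher and 3.42% lower. The neutrophil list had a median of 1.60, with 3 of 5 genes called higher (S100a8, S100a9 and Retnlg), summed levels of 4.11 FPKM in CD and 14.9 FPKM in HFD, and its defining gene Ly6g listed at 0 in both groups. The macrophage list had a median of 0.74, with 3 of 8 genes called higher (Cd5l, Marco and Csf1r, the last at 0.00222 in CD and past the minimum only through HFD) and sums of 19.7 and 33.4 FPKM, while the Kupffer cell gene Clec4f was at 5.55 and 5.03 FPKM. The macrophage gene Adgre1 went the other way, at 0.124 in CD and 1.71e-06 FPKM in HFD (-1.16), with a mean under the minimum. Dendritic cell markers had 1 of 5 called higher (Itgax), a median of 0.19 and sums of 1.62 and 4.4 FPKM. Genes of all leukocytes had 1 of 6 called higher (Laptm5), a median of 0.27 and sums of 2.04 and 4.3 FPKM, with Ptprc, the gene of CD45, at 0.00825 and 0.0178 FPKM. B cell markers stood apart from the T and NK markers, with 0 of 5 called, a median of -0.05 and sums of 1.73 and 1.99 FPKM. Hepatocyte genes had 1 of 8 called lower (Fabp1), a median of -0.33 and sums of 1.44e+04 and 8.13e+03 FPKM, a ratio of 0.563, nearly all of it from Apoa1, Ttr and Fabp1. Sinusoidal endothelial genes had 0 of 5 called, a median of -0.47 and sums of 7.59 and 11.6 FPKM. The part of these other cells in the marker levels was not tested.

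In db livers the lists of other cell types differed from each other. The shares over all genes that passed were 7.37% called higher and 5.24% lower. Neutrophil genes had 0 called higher and 1 lower of 5 (S100a9), with sums of 2.11 FPKM in misty and 1.8 FPKM in db, and macrophage genes had 1 of 8 called higher (Timd4), with sums of 13.9 and 15.8 FPKM. Genes of all leukocytes had 0 called of 5 with a line and sums of 7.07 and 7.42 FPKM, B cell genes 0 of 5 with sums of 0.828 and 0.494 FPKM, and dendritic cell genes 0 of 5 with sums of 0.342 and 0.329 FPKM. Endothelial genes had 0 of 5 called and sums of 8.13 and 9.03 FPKM. The sum of the hepatocyte list was 1.08e+04 FPKM in misty and 4.06e+03 FPKM in db, a ratio of 0.375, with 1 gene called higher (Ttr) and 2 lower (Apoa1 and Fabp1) of 8. Nearly all of that sum came from Apoa1 (4.02e+03 and 1.38e+03 FPKM) and Fabp1 (6.74e+03 and 2.62e+03 FPKM), while Tat was at 38 and 24.3 FPKM (-0.64) and Ass1 at 17.3 and 11.5 FPKM (-0.59), neither called.

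The genes whose pair of differences was nearest to the members' median pair (1.22 in HFD and 0.00 in db), among protein coding genes with a mean of at least 0.5 FPKM in both tables, were Slc35b1, Tlr7, Ankrd50, Cd44 and Runx1. Their distances, on the log2 scale over only 2 comparisons, were 0.05, 0.06, 0.06, 0.08 and 0.08. The db median of 0.00 is that of Cd4 and Lck, both listed near 0, so likeness in db is to no measured change. No member reached 0.5 FPKM in the genetic model, where the highest mean was 0.262 FPKM (Gzma). Tlr7, a sensor of single-stranded RNA, had differences of 1.16 and 0.00, Cd44 of 1.15 and 0.03, and Runx1, a transcription factor of blood cells, of 1.15 and -0.04. Slc35b1, a transporter of the endoplasmic reticulum, had 1.18 and -0.01. Ankrd50 was listed at 2.3e+04 and 5.28e+04 FPKM in the diet table and at 2.42 and 2.33 FPKM in the genetic one, so its likeness rests on unlike lines.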

How the data were processed

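Liver RNA-Seq of 12 mice in 4 groups was analysed from the authors' deposited tables, 1 per model. The labels name Bowtie2 2.2.9, STAR 2.6.0c, Cufflinks 2.2.1, Cuffdiff and the builds mm10 and GRCm38. The study's methods describe trimming, removal of ribosomal reads, alignment, assembly of transcripts and comparison by Cuffdiff. The deposited values used are FPKM, which the authors' Cuffdiff run gave as 1 pooled value per group and transcript. The tables also hold the authors' fold changes, test statistics, p-values, q-values and calls, which were not used, and annotation columns. The status of each line was used only as a flag. The tables held 62486 and 62945 lines, while assembled transcript numbers ran to 176978 and 177229, so they are parts of larger assemblies. Status OK was given to 31.7% and 31.6% of lines, and 9.7% and 10.8% of lines carried no gene symbol and were left out.

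Lines were summed per gene symbol, 0.1 FPKM was added, and the difference of log2 values was called from 2-fold at a mean of 0.1 FPKM or more. The steps were tested on simulated data (Python 3.11.15, pandas 2.3.3, numpy 2.4.6). Known changes without noise were set on genes with a control level of 1 FPKM or more. That is above the control level of every member, so calls at the members' levels were not tested. Members and the 10 lists (120 genes) were chosen with earlier results of these data known. Named genes are all members, listed genes past 2-fold (at most 12 per list), at most 3 markers per other cell type, and the 5 genes nearest to the members. Uncalled listed genes were added, after their values were seen, to show where a list did not move, as were further markers of neutrophils, macrophages and hepatocytes. Gene positions are the Ensembl positions (GRCm38) given with the deposited values, and promoters are from RefSeq. Alternatives changed the pseudocount, the minimum, the threshold, the transcripts summed and the centring. Cd247, Cd27 and Klrb1b had no line in either table, Cxcr6 none in the diet table, and Trbc2 and Coro1a none in the genetic table. Some items of the lists and of the genotype labels are not reported here.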

Additional observations from a re-analysis of the deposited data

How the results depend on the processing

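In HFD against CD, 6 members were called higher with the settings used, and 0 were with a pseudocount of 1 FPKM, 3 with a minimum mean of 0.5 FPKM and 2 (Cd3e and Gzma) with a threshold of 3-fold. The median of the members was 1.22 and became 0.37 with a pseudocount of 1 FPKM. Of the other NK and cytotoxic genes, 7 were called, and 2, 4 and 2 were under those same 3 changes. Of the other T cell genes, 4 were called, against 12 with a pseudocount of 0.01 FPKM, 1 with a pseudocount of 1 FPKM, 2 with a minimum of 0.5 FPKM, 2 with the most abundant transcript only, 14 higher and 2 lower at 1.5-fold, and 1 at 3-fold. In db against misty, 0 members were called higher under every alternative that gave a value, and 1 (Cd2, -1.02) was lower with a pseudocount of 0.01 FPKM and also at 1.5-fold. The other T cell genes went from 4 to 1 with a pseudocount of 1 FPKM, to 1 with a minimum of 0.5 FPKM and to 0 at 3-fold. The other NK genes went from 0 to 1 with a pseudocount of 0.01 FPKM, with no minimum and at 1.5-fold, where 1 was also lower. The larger pseudocount and higher limits act on low levels by construction.

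With all transcripts replaced by the most abundant one, 5 members were called in HFD and Cd8b1 (0.64) was not. With status OK lines only, coding lines only, centring on the median of all genes (0.00 and -0.01) or a pseudocount of 0.01 FPKM, 6 were called, and 7 with no minimum, which adds Cd3g (1.46). No db member passed a minimum of 0.5 FPKM, so that setting gave no value there. No alternative separated the lines of a gene by their run of locus numbers. The genes in the members' level range were added as a background after the data were seen. No paired analysis was possible because each table holds 1 pooled value per group, and leaving out a liver was not possible for the same reason. Levels under 1 FPKM, status NOTEST for 8 of 20 and 11 of 12 member lines, and the lack of a value per liver limit what can be said.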
